A study of Hydra vulgaris with 2 samples.

Results

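The transcripts of 5 Hsp70-type and Hsp90-type chaperone genes are described here in RNA from extracellular vesicles (EVs) of *Hydra vulgaris*, out of 25314 listed targets, of which 21982 are mRNA. The genes were chosen by their TPM values in both libraries, so that their levels are a description and were not tested. Each of the 5 was found as a single listed target whose pair of TPM values, rounded to 3 digits, fitted the pair given for it. The Hsp70-type genes are LOC100202286 and LOC105844776, both described as Hsp70 cognate-1-like, and LOC100205911, described as Hsp70-like. The Hsp90-type genes are LOC101235897 and LOC100199389, both described as Hsp90-alpha-like. The names rest on these descriptions, since no sequence of the targets was analysed here.

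The data are 2 RNA-seq libraries of 1 group, EV RNA from pooled polyps of the strain Zurich. They are named ExoRNA5000Hy and ExoRNA11250Hy, and what the number in each name stands for is not given in the labels. Polyps were kept at 250 per dish in 10 mL of medium and starved for 4 days, and the EVs pelleted from the medium were treated with 1 mg/mL proteinase K and then with 10 µg/mL RNase A before RNA extraction. No whole-polyp RNA is set beside it here, and in bulk RNA fewer vesicles with a transcript and less of it per vesicle cannot be told apart. Marker transcripts of EVs were not examined here, so for these libraries the label rests on the isolation. The study examined EVs isolated from the medium by electron microscopy, sizing and protein identification. The estimated counts summed to 5943550 in ExoRNA5000Hy and 3943870 in ExoRNA11250Hy, and the 5 most abundant targets took 97.0% and 98.7% of them. This left 176028 counts in ExoRNA5000Hy and 51977 in ExoRNA11250Hy for the remaining targets, a difference in depth that moves with the results below and whose part in them was not tested.

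Hsp70 and Hsp90 are chaperones, proteins that use ATP to keep other proteins from clumping and to help them fold. Hsp70 holds short greasy stretches of unfolded proteins, to which it is guided by co-chaperones with a J-domain, while Hsp90 acts later, on proteins that are nearly folded, such as kinases and receptors. Cognate forms of Hsp70 are made without stress, and Hsp70 proteins are common cargo of EVs in many animals. *Hydra* is known for species that differ in the strength of their Hsp70 response to heat.

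The highest level among the 5 genes in ExoRNA5000Hy was that of the Hsp70 cognate-1-like gene LOC100202286. It reached 62.3 TPM in ExoRNA5000Hy and 4.54 TPM in ExoRNA11250Hy (mean 33.4 ± 40.8 TPM, SD, n = 2 libraries). TPM is a level per base of target, scaled to the same sum in each library. These levels rest on 123 estimated counts in ExoRNA5000Hy, with an exact Poisson 95% interval of 102 to 147, and on 5.61 in ExoRNA11250Hy, with an interval of 2.20 to 13.1. Such intervals were taken on the rounded count. They hold counting error alone, as several reads can come from 1 molecule.

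LOC100205911, the Hsp70-like gene, followed in ExoRNA5000Hy with 48.0 TPM and was the highest of the 5 in ExoRNA11250Hy with 6.28 TPM (mean 27.2 ± 29.5 TPM). It had 110 estimated counts in ExoRNA5000Hy (90.4 to 133) and 9 in ExoRNA11250Hy (4.12 to 17.1). As TPM, the intervals of LOC100202286 and LOC100205911 overlapped in each library, at 51.7 to 74.2 and 39.5 to 57.9 TPM in ExoRNA5000Hy and at 1.78 to 10.6 and 2.87 to 11.9 TPM in ExoRNA11250Hy. Their order was therefore not resolved at this depth. The second cognate-1-like gene, LOC105844776, was the lowest of the Hsp70-type genes in both libraries. It had 31.8 estimated counts and 15.8 TPM in ExoRNA5000Hy, and 1.39 estimated counts and 1.11 TPM in ExoRNA11250Hy, where it lay under the floor of 3 counts.

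Among the Hsp90-type genes, LOC101235897 was at 21.3 TPM in ExoRNA5000Hy and 1.31 TPM in ExoRNA11250Hy (mean 11.3 ± 14.1 TPM, n = 2). It had 155 estimated counts in ExoRNA5000Hy (132 to 181) and 6 in ExoRNA11250Hy (2.20 to 13.1). LOC100199389 had more counts in ExoRNA5000Hy, 187 (161 to 216), but the lower TPM, 11.1, as its target is the longer one. In ExoRNA11250Hy it had 5 estimated counts (1.62 to 11.7) and 0.471 TPM, the lowest level of the 5 genes. All 5 genes were lower in ExoRNA11250Hy than in ExoRNA5000Hy, by TPM and by counts.

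**Figure D1:**
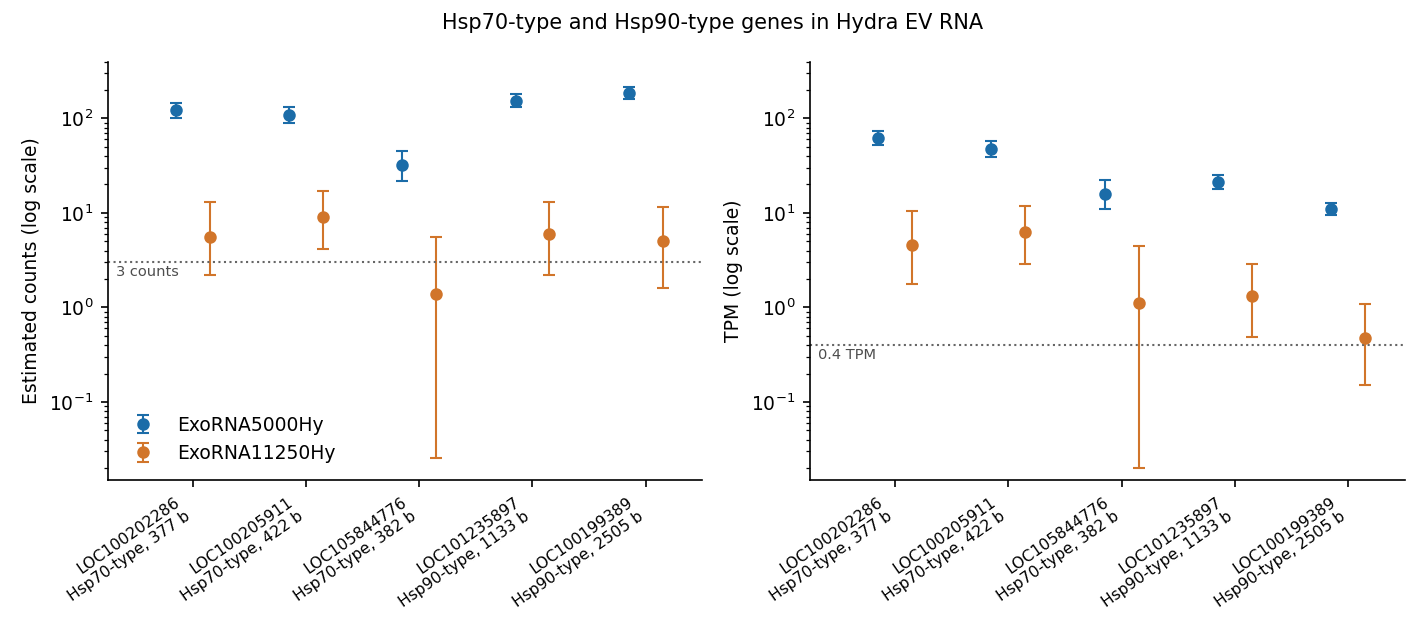
Estimated counts (left) and TPM (right) of the 5 genes in ExoRNA5000Hy and ExoRNA11250Hy, both on log axes, with the target length in bases (b) under each name. Bars are exact Poisson 95% intervals of the rounded count, scaled to TPM on the right; LOC100199389 has the most counts in ExoRNA5000Hy, 187, and the lowest TPM there, 11.1.

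Summed over the members alone, the Hsp70-type genes stood above the Hsp90-type genes per length in each library. Relatives described below, such as endoplasmin and LOC100205248, are not in these sums. The 3 Hsp70-type genes reached 126 TPM in ExoRNA5000Hy and 11.9 TPM in ExoRNA11250Hy, and the 2 Hsp90-type genes 32.4 and 1.78 TPM. The ratio of Hsp70-type to Hsp90-type TPM of the members was 3.89 in ExoRNA5000Hy and 6.69 in ExoRNA11250Hy. No interval was taken for it, and its difference between the libraries was not tested. By estimated counts, with no correction for length, the order in ExoRNA5000Hy was the other way round, with 265 counts on Hsp70-type and 342 on Hsp90-type targets, a ratio of 0.775 (exact interval 0.658 to 0.912). In ExoRNA11250Hy the counts were 16 and 11, a ratio of 1.45 whose interval of 0.634 to 3.47 includes equal counts.

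The targets behind these values differ in length. Those of the Hsp70-type genes are 377, 382 and 422 bases long, and up to this length lie only 4.99% of mRNA targets, whose median length is 1124 bases. With at most 125, 127 and 140 codons, these targets hold a part of an Hsp70 coding sequence at most, whereas the targets of the Hsp70-type genes of the endoplasmic reticulum (ER) and of mitochondria, described below, are 2341 and 2355 bases long. The Hsp90-type targets have 1133 bases (LOC101235897) and 2505 bases (LOC100199389). A single count on LOC100202286 was worth 0.506 TPM in ExoRNA5000Hy and 0.810 TPM in ExoRNA11250Hy. On LOC100199389 it was worth 0.0593 TPM in ExoRNA5000Hy and 0.0941 TPM in ExoRNA11250Hy.

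**Figure D2:**
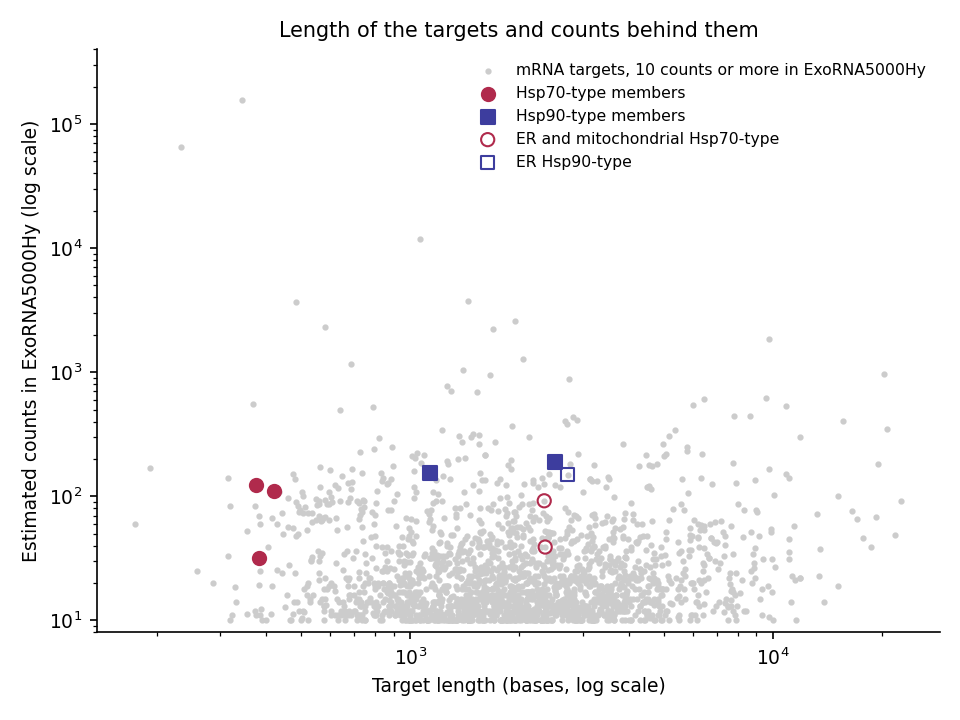
Target length in bases against estimated counts in ExoRNA5000Hy, both on log axes, for mRNA targets with at least 10 counts (grey), the Hsp70-type and Hsp90-type members (filled) and their relatives of the ER and mitochondria (open). The 3 Hsp70-type members sit at the short end, at 377 to 422 bases, and the Hsp90-type members at 1133 and 2505 bases.

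Reads of several of these genes could not be placed on 1 target alone. LOC100202286 and LOC105844776 had fractional counts in both libraries, and their sum was a whole number within 0.001 counts, 155 in ExoRNA5000Hy and 7 in ExoRNA11250Hy. Kallisto, the program that assigned the reads, gave LOC100202286 79.5% of the sum in ExoRNA5000Hy and 80.1% in ExoRNA11250Hy. The Hsp90-type counts were fractional in ExoRNA5000Hy and summed there to 342, of which LOC101235897 received 45.2%. In ExoRNA11250Hy the Hsp90-type genes had whole counts, as did LOC100205911 in both libraries. Of the mRNA targets with at least 10 counts in ExoRNA5000Hy, 18.9% had fractional counts there. The level of each gene within a pair thus depends on how reads were divided, which the counting intervals leave out, while the summed counts of a pair do not. Summed TPM does depend on it where the targets differ in length. With all 342 counts on the longer or all on the shorter Hsp90-type target, the pair would be at 20.3 or at 47.1 TPM in ExoRNA5000Hy, and the ratio of Hsp70-type to Hsp90-type TPM at 6.22 or at 2.68. For the cognate-1-like pair, whose targets are nearly equal in length, the same ends are 77.0 and 78.4 TPM. The cognate-1-like pair was at 78.1 TPM in ExoRNA5000Hy and 5.65 TPM in ExoRNA11250Hy.

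The members are listed close together. The 3 Hsp70-type targets follow each other directly in the order LOC105844776, LOC100205911 and LOC100202286. Among the 10 targets listed on each side of them, the highest had 9 estimated counts in ExoRNA5000Hy and 3 in ExoRNA11250Hy. The Hsp90-type targets are separated by 4 others, each with 0 counts in both libraries. Of the 24 other targets in and around this stretch, 18 had 0 counts in ExoRNA5000Hy and 23 had 0 in ExoRNA11250Hy. The highest of the 24, LOC100207752, a ribosomal protein L23a-like gene named here after its value was seen, had 101 counts in ExoRNA5000Hy and 9 in ExoRNA11250Hy, and the next had 12 in ExoRNA5000Hy. In the annotation of another assembly, HydraT2T_AEP, which places 2 of the 5 genes, LOC100202286 and LOC105844776 are on the same chromosome with 2 genes between them. That annotation names 1 other gene *hsp70*, on another chromosome, whose transcript was not analysed here.

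**Figure D3:**
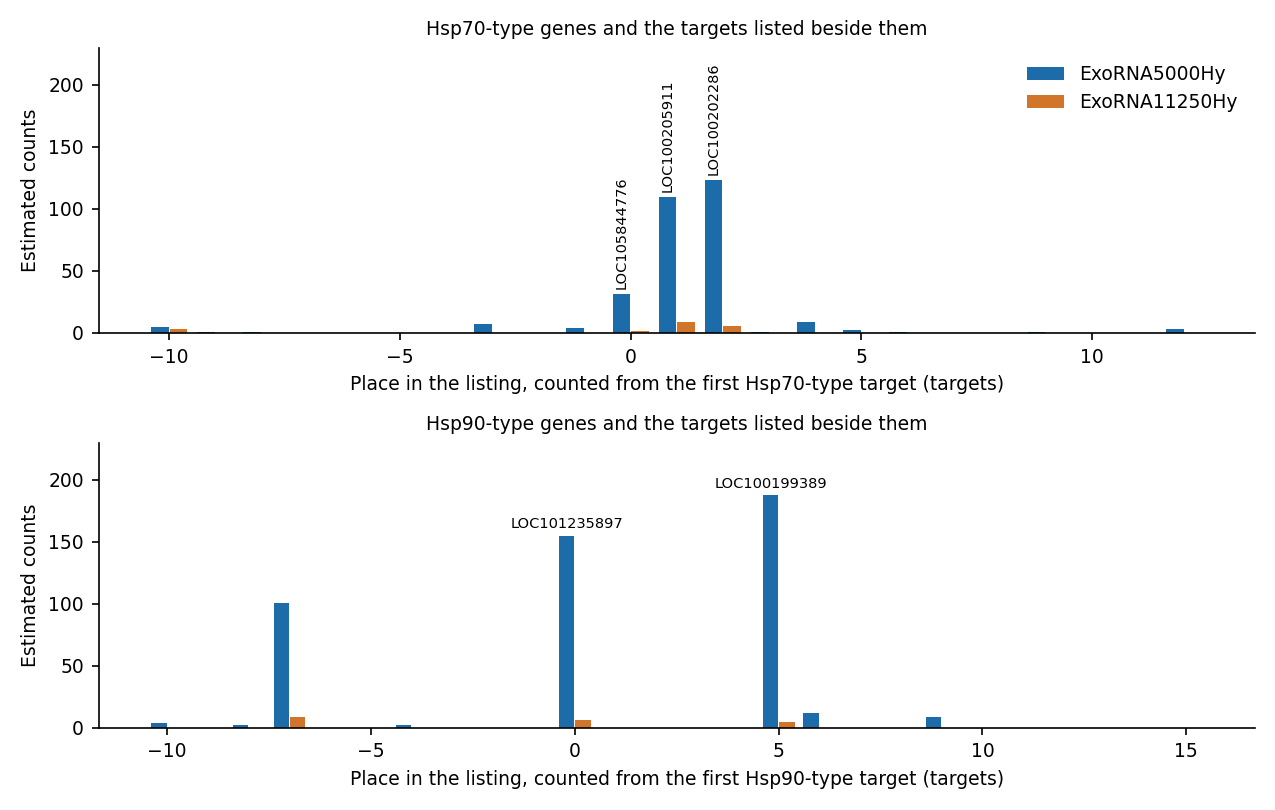
Estimated counts in ExoRNA5000Hy and ExoRNA11250Hy of the Hsp70-type targets (top) and the Hsp90-type targets (bottom), each with the 10 targets listed before and after them; the horizontal axis is the place in the listing, in targets. The named bars stand among targets with 0 to 9 counts in the upper panel, and among targets mostly at 0 in the lower one.

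All 5 genes were at 0.4 TPM or more in both libraries, as were 4.25% of all targets and 3.74% of mRNA targets. The value of 0.4 TPM is that of the study, which asked for it in at least 1 library, while here it was asked for in both. Since the genes were chosen by these TPM, nothing is read from this count. In ExoRNA5000Hy, 24.4% of mRNA targets reached the threshold, and in ExoRNA11250Hy 4.61%. For LOC100202286 the threshold stands for 0.791 counts in ExoRNA5000Hy and 0.494 in ExoRNA11250Hy, so that a single whole read passes it. For LOC100199389 it stands for 6.75 counts in ExoRNA5000Hy and 4.25 in ExoRNA11250Hy, and its 5 counts in ExoRNA11250Hy were just above. With at least 3 counts also required in each library, 4 of the 5 genes remained, without LOC105844776, beside 2.43% of mRNA targets. At 1 TPM in both libraries 4 of the 5 remained too, without LOC100199389, beside 2.22% of all targets and 1.57% of mRNA targets. At 0.2 TPM all 5 were in, beside 7.07% of all targets and 6.94% of mRNA targets.

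Together the 5 genes held 607 counts in ExoRNA5000Hy and 27 in ExoRNA11250Hy. This was 0.345% of the counts outside the 5 most abundant targets in ExoRNA5000Hy (Wilson 95% interval 0.319 to 0.373) and 0.0519% in ExoRNA11250Hy (0.0357 to 0.0756). At the share of ExoRNA5000Hy, 179 counts would have fallen on them in ExoRNA11250Hy. Their share was 6.64-fold higher in ExoRNA5000Hy, with an exact counting interval of 4.52 to 10.2, and that of all mRNA outside the 5 most abundant targets was 1.21-fold higher. The value of 1.21 is for summed counts, in which mRNA with many counts weigh most, and is not that of a typical mRNA target. By TPM, the sum of the 5 genes was 11.6-fold higher. The median fold of TPM + 0.1 over the 2209 mRNA targets described below was 6.19. The Hsp90-type pair had the larger fold, 9.18 (5.07 to 18.6), followed by the cognate-1-like pair with 6.54 (3.10 to 16.5) and LOC100205911 with 3.61 (1.83 to 8.10). These intervals overlap each other. The folds are made from the values that chose the genes and stand as a description of these libraries.

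Most mRNA targets with enough counts to be compared were lower in ExoRNA11250Hy too. On the scale of log2(TPM + 0.1), ExoRNA5000Hy over ExoRNA11250Hy, the 5 genes lay between 2.92 (LOC100205911) and 4.30 (LOC100199389), with a median of 3.75. The 2209 mRNA targets that had 10 or more counts in all and were outside the 5 most abundant had a median of 2.63, that is 6.19-fold, and 4 of the 5 genes were above the upper quartile of 3.45. None (0 of 5) was above the 95th percentile of 4.88. Of these mRNA targets 34.5% had 0 counts in ExoRNA11250Hy, where the ratio is set by the pseudocount. Among the 621 targets with at least as many counts as the least abundant of the 5 genes, 10.5% had 0 counts in ExoRNA11250Hy. There the median was 2.79, and the genes stood at percentiles between 54.8 (LOC100205911) and 89.7 (LOC100199389). A TPM at least 4-fold higher in ExoRNA5000Hy was found for 5 of the 5 genes, for 81.3% of the 2209 targets and for 81.5% of the 621. Both sets were kept by their counts over both libraries, and 2043 mRNA targets already had 10 or more counts in ExoRNA5000Hy. The filter therefore favours targets that are high in this deeper library. These shares do not give the direction of mRNA in general. The median of the 5 genes was above that of the 2209 targets by 1.12 on the log2 scale, and by 0.36 when TPM was rescaled without the 5 most abundant targets, which moved the median of the 2209 targets to 3.10 and that of the 5 genes to 3.46. Above the 621 targets it lay by 0.96, and by 0.68 after rescaling. With a pseudocount of 1 TPM the medians were 3.04 for the 5 genes and 1.05 for the 2209 targets, and the gap was 1.996, or 1.34 above the 621 targets. Rescaling multiplies all TPM of a library by 1 factor, 33.1 in ExoRNA5000Hy and 43.0 in ExoRNA11250Hy. Without a pseudocount it would shift all log2 ratios alike and leave the gap as it was. The size of the gap thus depends on the weight of the pseudocount, which is less on the rescaled TPM.

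**Figure D4:**
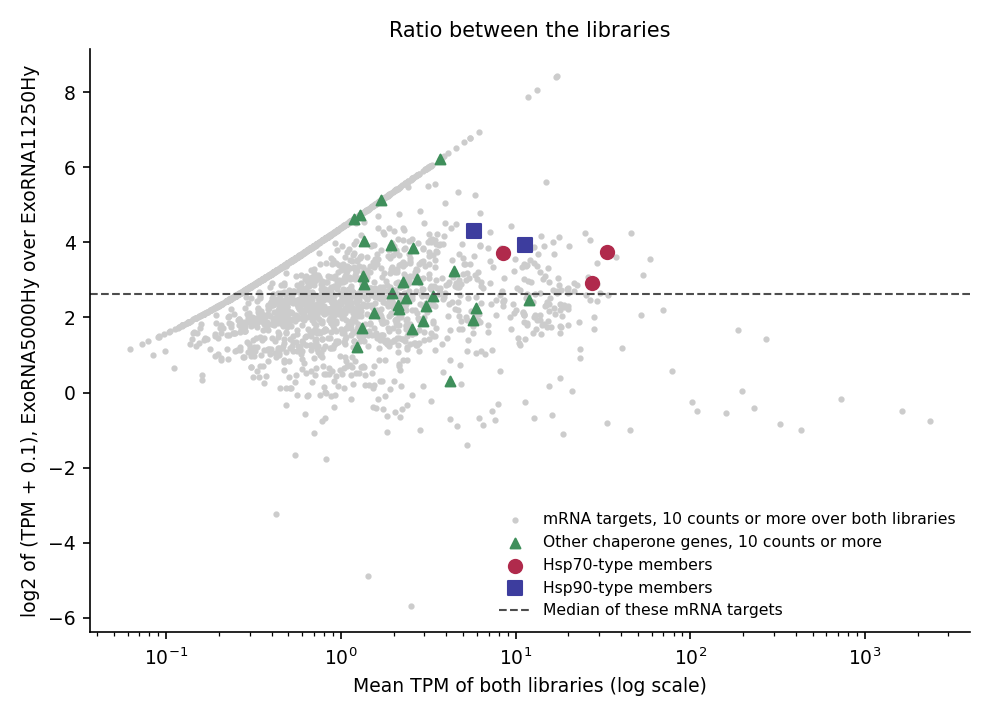
Mean TPM of both libraries (log axis) against the log2 ratio of TPM + 0.1, ExoRNA5000Hy over ExoRNA11250Hy, for the 2209 mRNA targets (grey), 27 other chaperone genes with at least 10 counts over both libraries (triangles) and the 5 members. The straight upper edge of grey points holds targets with 0 counts in ExoRNA11250Hy; the members lie between 2.92 and 4.30, above the dashed median of 2.63.

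Chaperones that work with Hsp70 and Hsp90, or beside them, were mostly lower per length than the members in ExoRNA5000Hy. Of 30 such genes, found by the words of their descriptions among the more abundant genes of the study, 1 was above the lowest member in ExoRNA5000Hy. This was calreticulin (LOC100203010), a lectin chaperone of the ER, with 20.3 TPM in ExoRNA5000Hy and 3.61 TPM in ExoRNA11250Hy on 214 and 24 counts. The others ranged down to 1.17 TPM in ExoRNA5000Hy. The members were chosen by these TPM, and the order was not the same by counts, which have no correction for length. The median of the 30 genes in ExoRNA5000Hy was 39 counts. This was above the 31.8 of LOC105844776 and below the other members, which began at 110. Calreticulin was above all 5 members by counts. In ExoRNA11250Hy, 19 of the 30 were above the 0.471 TPM of the lowest member. Since the genes come from a list of detected genes, their detection is no finding: 30 reached 0.4 TPM in ExoRNA5000Hy, and 21 did so in ExoRNA11250Hy and in both.

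Several of the 30 genes are relatives of Hsp70 and Hsp90 in other compartments. The Hsp70-type gene of the ER, LOC100200137, known as BiP, which pulls proteins into the ER and folds them there, had 92 counts in ExoRNA5000Hy and 9 in ExoRNA11250Hy, at 5.85 and 0.909 TPM. The Hsp70-type gene of mitochondria, LOC100201403, which draws proteins through the inner membrane, had 39 counts in ExoRNA5000Hy and 2 in ExoRNA11250Hy, at 2.47 and 0.201 TPM. Endoplasmin (LOC100215003), the Hsp90-type chaperone of the ER, had 149 counts in ExoRNA5000Hy and 9 in ExoRNA11250Hy, at 8.12 and 0.779 TPM. Its level was below that of both Hsp90-type members in ExoRNA5000Hy, but above that of LOC100199389 in ExoRNA11250Hy. A further Hsp90-type gene, LOC100205248, had 5 counts in ExoRNA5000Hy and 3 in ExoRNA11250Hy, where its TPM was also above that of LOC100199389. The share of LOC100205248 outside the most abundant targets was 0.492 times as high in ExoRNA5000Hy, with an interval of 0.0957 to 3.17.

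Of the 5 co-chaperones with a J-domain, which hand clients to Hsp70 and speed up its use of ATP, LOC100201285 (DnaJ A1-like) was the highest at 9.06 TPM in ExoRNA5000Hy and 2.31 TPM in ExoRNA11250Hy, on 81 and 13 counts. LOC100210733 (DnaJ B6-like) had 4.66 TPM in ExoRNA5000Hy and 3.73 TPM in ExoRNA11250Hy, on 10 and 5 counts. Its share outside the most abundant targets was 0.591 times as high in ExoRNA5000Hy, with an interval of 0.184 to 2.20 that includes equal shares. LOC100198371 (DnaJ A2-like) had 4.68 TPM in ExoRNA5000Hy and 1.18 TPM in ExoRNA11250Hy. LOC100215612, described as SEC63, which recruits BiP to the channel of the ER, had 2.47 TPM in ExoRNA5000Hy and 0.245 TPM in ExoRNA11250Hy. The cysteine string protein LOC100196995, summed over its 2 targets, had 2.06 TPM in ExoRNA5000Hy and 0.559 TPM in ExoRNA11250Hy. A co-chaperone of Hsp90, p23 (LOC105850946), had 24 counts and 7.38 TPM in ExoRNA5000Hy and 0 counts in ExoRNA11250Hy. With the floor of 3 counts put in place of 0 in ExoRNA11250Hy, its share was 2.36-fold higher in ExoRNA5000Hy. The exact interval for 0 counts there starts at 1.78-fold and has no upper end. Large proline-rich protein BAG6 (LOC100215156), which holds membrane proteins before their insertion, had 62 counts in ExoRNA5000Hy and 1 in ExoRNA11250Hy, at 2.66 and 0.0680 TPM. Heat shock factor-binding protein LOC101240513, known in mammals to restrain the factor that switches on heat shock genes, had 6 counts in ExoRNA5000Hy and 1 in ExoRNA11250Hy.

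The cytosolic chaperonin is a ring in which actin and tubulin fold. Its 8 subunits lay between 2.38 TPM (theta, LOC100201609) and 5.20 TPM (epsilon, LOC100198918) in ExoRNA5000Hy, and between 0 and 1.15 TPM in ExoRNA11250Hy, the highest there being zeta (LOC100211398). They rest on 26.6 to 63 counts in ExoRNA5000Hy and on 0 to 9 in ExoRNA11250Hy. The 3 prefoldin subunits, which deliver actin and tubulin to the ring, had 7 to 12 counts in ExoRNA5000Hy and 0 to 2 in ExoRNA11250Hy. The mitochondrial chaperonin Hsp60 (LOC100209426) was at 3.44 TPM in ExoRNA5000Hy and 0.464 TPM in ExoRNA11250Hy, and its lid Hsp10 (LOC100205882) had 8 counts in ExoRNA5000Hy and 2 in ExoRNA11250Hy. In the ER, the disulfide isomerase LOC100198247 reached 9.80 TPM in ExoRNA5000Hy and 1.99 TPM in ExoRNA11250Hy, and LOC100203161 3.72 and 0.152 TPM. The calnexin-like genes LOC101239596 and LOC100210123, lectin chaperones bound to the membrane, had 16 and 17 counts and 2.58 and 2.56 TPM in ExoRNA5000Hy, and 2 and 0 counts and 0.512 and 0 TPM in ExoRNA11250Hy.

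**Figure D5:**
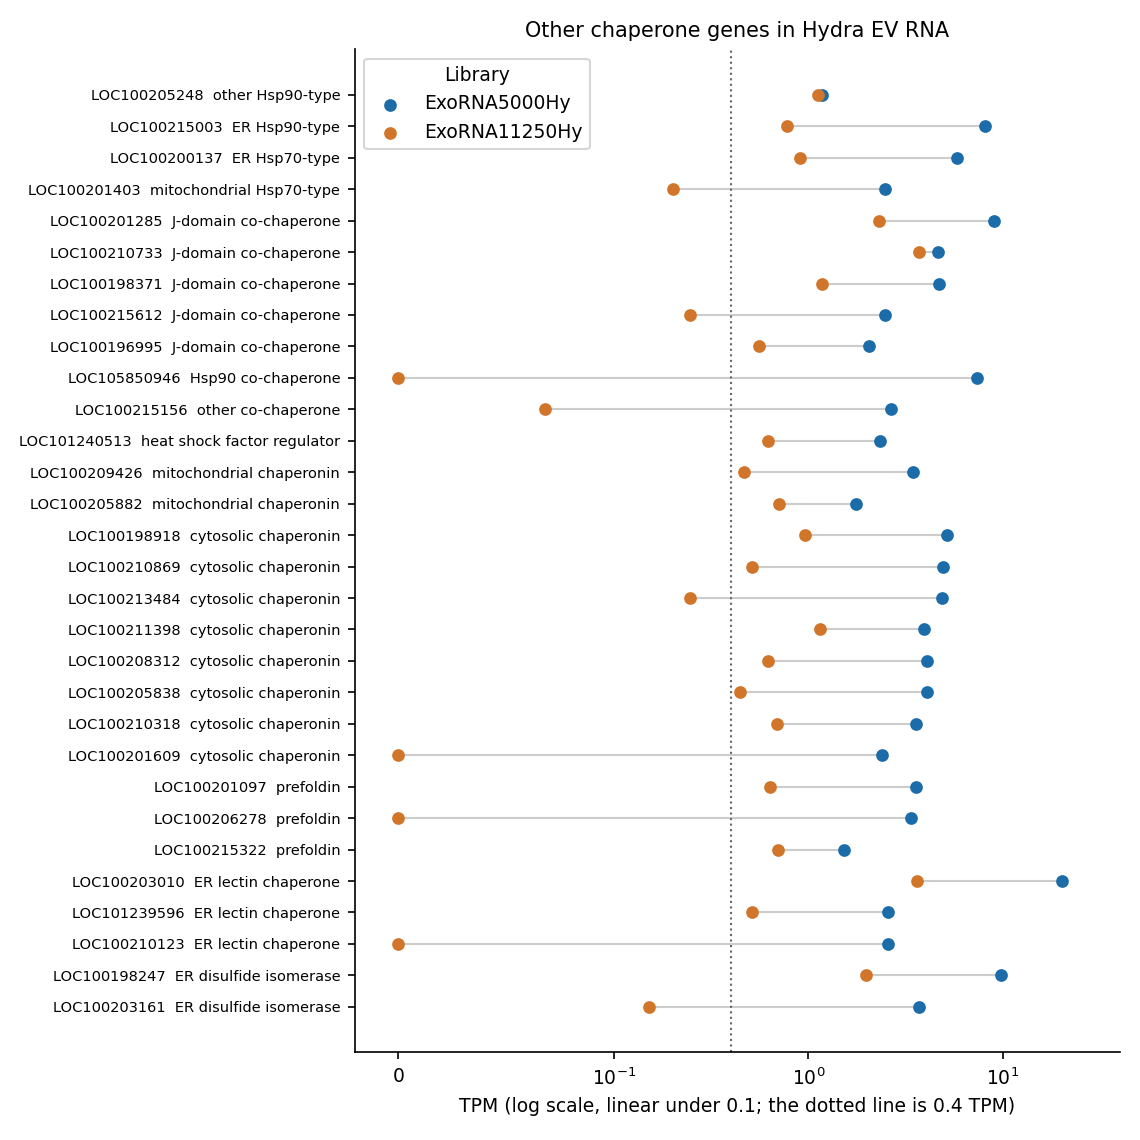
TPM in ExoRNA5000Hy and ExoRNA11250Hy of the 30 other chaperone genes, by role, on a log axis that is linear under 0.1 TPM; the dotted line marks 0.4 TPM. Calreticulin (LOC100203010) is the highest in ExoRNA5000Hy at 20.3 TPM, and 4 genes are at 0 in ExoRNA11250Hy.

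Over all 30 genes, the counts summed to 1350 in ExoRNA5000Hy and 128 in ExoRNA11250Hy, and their share outside the most abundant targets was 3.11-fold higher in ExoRNA5000Hy (exact interval 2.60 to 3.76). Both this set and the members were chosen from the abundant genes of these libraries, so that their folds are a description. No difference between the sets was tested. The log2 ratio of TPM + 0.1 had a median of 2.49 over the 30 genes, close to the 2.63 of the mRNA targets, and 11 of the 30 were above the lowest of the members.

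Genes with other roles had pairs of TPM close to those of the members. Nearest to LOC100202286 by distance on the scale of log2(TPM + 0.1) over both libraries were a histone H2B gene (LOC105847988) at 53.5 TPM in ExoRNA5000Hy and 4.77 TPM in ExoRNA11250Hy, a mucin-2-like gene (LOC105850540) at 69.0 and 5.55 TPM, and ribosomal protein S12 (LOC100202980) at 46.4 and 5.41 TPM, at distances of 0.23, 0.32 and 0.49. Nearest to LOC101235897 were ribosomal protein L22 (LOC100207766), polyadenylate-binding protein (LOC100205111) and a G-protein beta-like gene (LOC100197367), at distances of 0.09, 0.21 and 0.26. With 2 libraries such closeness says only that the levels are alike.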

How the data were processed

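The 2 libraries, both of the same group, hold RNA-seq of EV RNA. The authors trimmed the reads with Trim Galore and quantified them with kallisto on the NCBI transcripts of the assembly Hydra_RP_1.0, separately for each library; versions are not given in the sources used here. Estimated counts were deposited as kallisto wrote them, without normalization, with a fraction of a read on each target it could come from. The deposited TPM are corrected for effective length and scaled to the same sum per library, which ties every level to the reads taken by the 5 most abundant targets. A level on a short target therefore rests on few reads.

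Nothing was normalized again. Genes were matched to targets by their pair of TPM in the supplementary gene list, as single targets or runs of up to 6 adjacent ones: 1210 of 1264 genes matched, among them the 5 members and all 30 other chaperones (29 single). A count was called whole within 0.001. There was no test between groups, as there is 1 group. Intervals at 95% are exact Poisson for counts, exact binomial for ratios of counts, given their sum, and Wilson for shares, and the floor is 3 counts. Differences between libraries are given on log2(TPM + 0.1). The annotation of HydraT2T_AEP served for gene order only, and 2 of 5 members and 26 of 30 other chaperones are in it. The *hsp70* sequence of the RT-PCR was not analysed here.

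The members, the list of other chaperones and the settings were chosen with earlier results of these data known. The genes named are the members, the listed chaperones (with TPM where a library had at least 10 counts, some of them as a range) and, for the highest gene of each family, the 3 nearest matched genes. LOC100207752 is outside this rule and was named after its value was seen. The rule also covered other targets that the annotation describes as Hsp70 or Hsp90, and the 1 such gene has no values here. Alternatives were other thresholds, pseudocounts and scalings, and each library left out. The interval for ratios of counts was tested on simulated whole counts of abundant mRNA targets only. Targets with few or fractional counts were not covered. The matching of single targets was tested on rounded TPM of deposited targets. Python 3.11.15, numpy 2.4.6, pandas 2.3.3, scipy 1.17.1 and matplotlib 3.10.9 were used.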

Additional observations from a re-analysis of the deposited data

How the results depend on the processing

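Nothing is read from the number of members detected in both libraries, as they were chosen by their TPM. It stayed between 4 and 5 under every alternative run. For the 30 other chaperones it was 21, with 24 at a threshold of 0.2 TPM and 7 at a threshold of 1 TPM. With at least 3 counts also required in each library it was 16. The summed mean level of the Hsp70-type genes, 69.0 TPM, was 126 TPM in ExoRNA5000Hy alone and 11.9 TPM in ExoRNA11250Hy alone. It came to 2346 TPM on a scale without the 5 most abundant targets, and to 452 CPM of the mRNA counts, which has no length correction. For the Hsp90-type genes the mean of 17.1 TPM ranged from 1.78 to 32.4 TPM with a library left out, and became 575 TPM on that scale and 530 CPM. The mean Hsp70-type over Hsp90-type ratio of 5.29 ranged from 3.89 to 6.69 with a library left out and dropped to 1.11 by CPM, since the Hsp70-type targets are short. The median log2 ratio of the members, ExoRNA5000Hy over ExoRNA11250Hy, was 3.75. By CPM it was 2.48. With a pseudocount of 1 it was 3.04, while its distance from the median of the 2209 mRNA targets was 1.996 in place of 1.12. Summing the genes that share reads (3.77) or keeping those with 3 counts in both libraries (3.83), both chosen after seeing the data, changed it little. Members with at least 10 counts in both libraries could not be used, as there were 0. No paired analysis was possible because there is 1 group. Depth limits ExoRNA11250Hy most, where the members rest on 27 counts.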

Other observations

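The genes of the mitochondrial chaperonin Hsp60 (LOC100209426) and of its lid Hsp10 (LOC100205882) are listed next to each other in the annotation of the assembly HydraT2T_AEP, with 0 genes between them. In EV RNA they had 47 and 8 counts in ExoRNA5000Hy, and 4 and 2 counts in ExoRNA11250Hy, on targets of 2050 and 741 bases.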
